A study of Mus musculus with 2 samples.

Results

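Ccl3-high Retnlg-negative neutrophils are tumour-infiltrating neutrophils with abundant transcripts of the chemokine gene Ccl3 and none of Retnlg, a gene of mature blood neutrophils. They were found among single immune cells from orthotopic Hepa1-6 liver tumours of wild-type C57/BL6 mice; Hepa1-6 is a mouse hepatoma line. The mice had received either an antibody against PD-1, an inhibitory receptor of T cells, or an isotype control immunoglobulin. Live CD45+ cells were sorted, and each antibody has a single droplet library and therefore no replicate. How many mice went into a library, and their age and sex, the labels do not say.

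A barcode entered the class if it held at least 200 genes, at most 10% mitochondrial UMIs (unique molecular identifiers, the counted molecules) and UMIs of at least 2 of the 6 neutrophil genes Csf3r, Cxcr2, G0s2, Hdc, Il1r2 and Cd300ld. It also needed 0 Retnlg UMIs and at least 3 Ccl3 UMIs. Limits on genes of other cells were at most 4 UMIs of Ngp, at most 1 of C1qa, C1qb and C1qc summed, at most 1 of H2-Ab1, and 0 of Ly6c2, Cd3d, Cd3e and Cd3g. The class held 470 of 10014 kept barcodes with anti-PD-1 and 587 of 9566 with isotype, which is 1057 of 19580 in all. The limits without the Ccl3 and Retnlg terms left 2149 neutrophils with anti-PD-1 and 2236 with isotype, called gated neutrophils here. Since measured counts chose the cells, levels of these genes and contrasts between classes of neutrophils describe the class and were not tested.

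Neutrophils leave the bone marrow carrying granule proteins and surface molecules for circulation, and in inflamed or tumour tissue they can lose parts of this programme and gain chemokine, hypoxia and survival transcripts. Ccl3 and Ccl4 encode chemokines that attract leukocytes. Cxcl1, Cxcl2 and Cxcl3 encode ligands of CXCR2, the main chemokine receptor of neutrophils. Of the other marker genes of the class, Hilpda encodes a hypoxia-induced lipid droplet protein that inhibits lipolysis, Il1rn the interleukin-1 receptor antagonist, and Hcar2 a receptor for butyrate, hydroxybutyrate and niacin.

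Summed over the class, 1027800 UMIs were counted with anti-PD-1 and 1274055 with isotype. The median cell held 1852 UMIs of 664 genes with anti-PD-1, and 1800 UMIs of 629 genes with isotype. The library totals were 72148493 UMIs for anti-PD-1 and 67520433 for isotype. The libraries shared 140 barcode sequences, of which 8 anti-PD-1 and 5 isotype barcodes were in the class and 0 were in it in both libraries. Scrublet scores above 0.25 marked 3 anti-PD-1 and 7 isotype cells of the class as likely doublets, which were kept. Intervals given here are 95% intervals for counting error only, apart from those of differences between medians of gene lists. Those are ranges combined from the medians of the gene intervals and are not 95% intervals. The spread between mice is unknown.

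Of the gate genes, which the rule itself used, G0s2 was detected in 84.0% of the cells of the anti-PD-1 library and 85.3% of those of the isotype library, Il1r2 in 81.3% and 81.6%, and Csf3r, the receptor of the neutrophil growth factor G-CSF, in 58.9% and 63.0%. Cxcr2 was found in 21.7% of the anti-PD-1 cells and 22.8% of the isotype cells. All of the marker genes Cxcl3, Hilpda, Il1rn and Hcar2 had a UMI in 149 of the 470 anti-PD-1 cells and 169 of the 587 isotype cells. None of them had one in 4 anti-PD-1 cells and 6 isotype cells.

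A small, deep subset carried transcripts of other lineages. Of the class, 40 anti-PD-1 cells and 47 isotype cells held 5 or more UMIs summed over 53 markers of macrophages, monocytes, dendritic cells, basophils and mast cells, and lymphocytes. They were 8.51% and 8.01% of the cells but held 23.3% and 26.1% of the UMIs of the class, with medians of 5719 and 7152 UMIs per cell. The classical monocyte markers summed to 818 CPM (UMIs scaled to a class total of 1e6) with anti-PD-1 and 905 CPM with isotype, against 75.6 and 59.0 CPM in Retnlg-positive neutrophils with fewer than 3 Ccl3 UMIs. Ly6c2, which the rule set at 0, and Ly6c1 were at 0 among them. Macrophage markers summed to 797 and 761 CPM in the class, against 443 and 364 CPM in those neutrophils. Basophil and mast cell markers gave 301 UMIs in the anti-PD-1 library, 294 of them in 1 cell, and 375 in the isotype library, 315 of them in 1 cell. The T cell genes Cd3d, Cd3e, Cd3g, Cd4 and Cd8a were at 0 in both libraries, as were the eosinophil granule genes Epx and Prg2. Results that rest on the cells with 5 or more UMIs of the 53 markers are given with and without those cells. Values without them are called "under the lineage limit" (430 anti-PD-1 and 540 isotype cells), a limit chosen after the data were seen.

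The question of how abundant the class was under PD-1 blockade is answered by its share of cells. It made up 4.69% (4.29 to 5.13) of kept barcodes with anti-PD-1 and 6.14% (5.66 to 6.64) with isotype, a difference of -1.44 points (-2.08 to -0.809, Newcombe's method). Of the gated neutrophils, it was 21.9% (20.1 to 23.7) with anti-PD-1 and 26.3% (24.4 to 28.1) with isotype, a difference of -4.38 points (-6.90 to -1.85). Under the lineage limit, the shares of neutrophils were 21.5% and 25.9%, again a difference of -4.38 points (-6.98 to -1.78). Gated neutrophils as a whole were also a smaller share of kept barcodes with anti-PD-1, at 21.5% against 23.4% with isotype. That difference was -1.91 points (-3.08 to -0.746). The class was thus the smaller one in the anti-PD-1 library by more than counting error on both denominators. With 1 library per antibody, this cannot be told apart from a difference between mice or preparations.

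For the other neutrophils split by the same pair of genes, the intervals of the difference held 0. Retnlg-positive cells with at least 3 Ccl3 UMIs were 21.5% of neutrophils with anti-PD-1 and 19.8% with isotype, a difference of 1.64 points (-0.755 to 4.04). Retnlg-negative cells with fewer than 3 Ccl3 UMIs were 21.1% and 19.6%, a difference of 1.45 points (-0.937 to 3.83). Retnlg-positive cells with fewer than 3 were 35.6% and 34.3%, a difference of 1.30 points (-1.53 to 4.12). Among all neutrophils with at least 3 Ccl3 UMIs, 50.5% of the anti-PD-1 cells and 57.0% of the isotype cells lacked Retnlg, a difference of -6.51 points (-10.9 to -2.09).

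**Figure D1:**
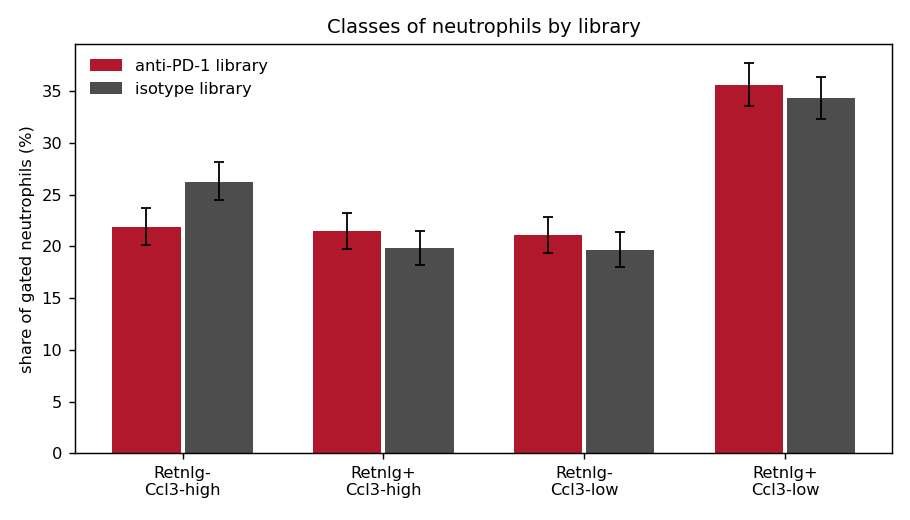
Share of gated neutrophils (%) in 4 classes set by Retnlg and Ccl3 UMIs, with exact Clopper-Pearson 95% intervals that cover counting error only; red bars are the anti-PD-1 library and grey bars the isotype library. The Retnlg-negative Ccl3-high class, at the left, was 21.9% with anti-PD-1 and 26.3% with isotype, and the intervals of the other classes overlap between libraries.

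The limits cut through a continuum. Cells just inside the Ccl3 limit, with 3 Ccl3 UMIs, numbered 40 with anti-PD-1 and 45 with isotype and had 1085 and 978 CPM of Ccl4. Retnlg-negative neutrophils just outside it, with 2 Ccl3 UMIs, numbered 72 and 67 and had 1131 and 1282 CPM. Hilpda was 1049 and 1910 CPM just inside and 2443 and 1630 CPM just outside. On the other side, 90 anti-PD-1 and 85 isotype cells had at least 3 Ccl3 UMIs and exactly 1 Retnlg UMI, with 6699 and 4259 CPM of Ccl4 and 14411 and 17248 CPM of S100a8. Cells on either side of the Ccl3 limit had Ccl4 levels near 1000 CPM, so the class is a range of counts.

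Chemokine genes were abundant in the class, though Fth1, the ferritin heavy chain, exceeded each of them at 63921 CPM with anti-PD-1 and 61823 CPM with isotype. Ccl3 was 9739 CPM with anti-PD-1 and 9602 CPM with isotype, and Ccl3 UMIs per cell had medians of 14 and 13 and maxima of 132 and 125. Ccl4 was 6658 and 5073 CPM, against 900 and 895 CPM in Retnlg-positive neutrophils with fewer than 3 Ccl3 UMIs, the comparison class below. Cxcl2 reached 47666 CPM in the anti-PD-1 cells and 52878 CPM in the isotype cells, against 20789 and 21928 CPM in the comparison class. Cxcl1 was far lower in level, at 534 and 369 CPM, but stood further above the comparison class, where it was 22.6 and 21.4 CPM. C1q-high cells, with at least 10 UMIs of these macrophage genes, had 5402 and 5208 CPM of Cxcl2, so it was higher in the neutrophil class. They had 480 and 411 CPM of Ccl3, but Ccl3 chose the cells of the class, so this gap is a description only.

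The 5 marker genes followed the Ccl3 and Retnlg terms to different degrees. Cxcl3 was 7332 and 6742 CPM in the class (anti-PD-1 and isotype, as in every pair that follows), 7105 and 6995 CPM in Retnlg-positive Ccl3-high cells, 2103 and 2354 CPM in Retnlg-negative Ccl3-low cells, and 3229 and 3071 CPM in the comparison class. It was thus as high in Ccl3-high cells with Retnlg as without. Hilpda was lower at each step across these classes in the same order, at 3327 and 2843, then 2343 and 2594, then 1427 and 1488, then 808 and 864 CPM. Il1rn had the same order, from 2778 and 2881 CPM in the class to 1063 and 1004 CPM in the comparison class. Hcar2 did not: it was highest in Retnlg-positive Ccl3-high cells at 3726 and 3438 CPM, with 2893 and 2428 CPM in the class and 2342 and 2145 CPM in the comparison class, so the gap to the comparison class was small and its sign turned with TMM scaling (-0.08 and -0.26 as log2 ratios).

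The cytokine genes Tnf and Il23a were more closely tied to the combination of both terms. Tnf, which encodes tumour necrosis factor, was 737 and 664 CPM in the class, 234 and 143 CPM in Retnlg-positive Ccl3-high cells, 288 and 243 CPM in Retnlg-negative Ccl3-low cells and 98.8 and 89.5 CPM in the comparison class. Il23a, the p19 subunit of interleukin-23, was 483 and 367 CPM in the class, 113 and 64.0, then 217 and 103, then 30.4 and 25.3 CPM in the others. Both genes were highest in the class in either library. Il1b, the proinflammatory cytokine, did not separate the classes, at 13836 and 13688 CPM in the class and 15014 and 12955 CPM in the comparison class.

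Several genes of circulating neutrophils were low in both Retnlg-negative classes, but not all. The granule gene Mmp9 was 417 and 485 CPM in the class and 412 and 500 CPM in Retnlg-negative Ccl3-low cells. In the comparison class it was 505 and 444 CPM. S100a8, a calcium-binding alarmin, was 6795 and 8537 CPM in the class and 6183 and 7367 CPM in Retnlg-negative Ccl3-low cells, against 20032 and 28493 CPM in Retnlg-positive Ccl3-high cells and 31058 and 40994 CPM in the comparison class. Lcn2, a siderophore-binding granule protein, was 172 CPM in both libraries of the class, against 1382 and 1700 CPM in the comparison class. Ly6g, the surface marker used to sort mouse neutrophils, was 6.81 and 3.92 CPM in the class, against 122 and 116 CPM in the comparison class. At this depth most cells of the class had no Ly6g UMI, and 14.4% and 10.2% of the comparison class had one.

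**Figure D2:**
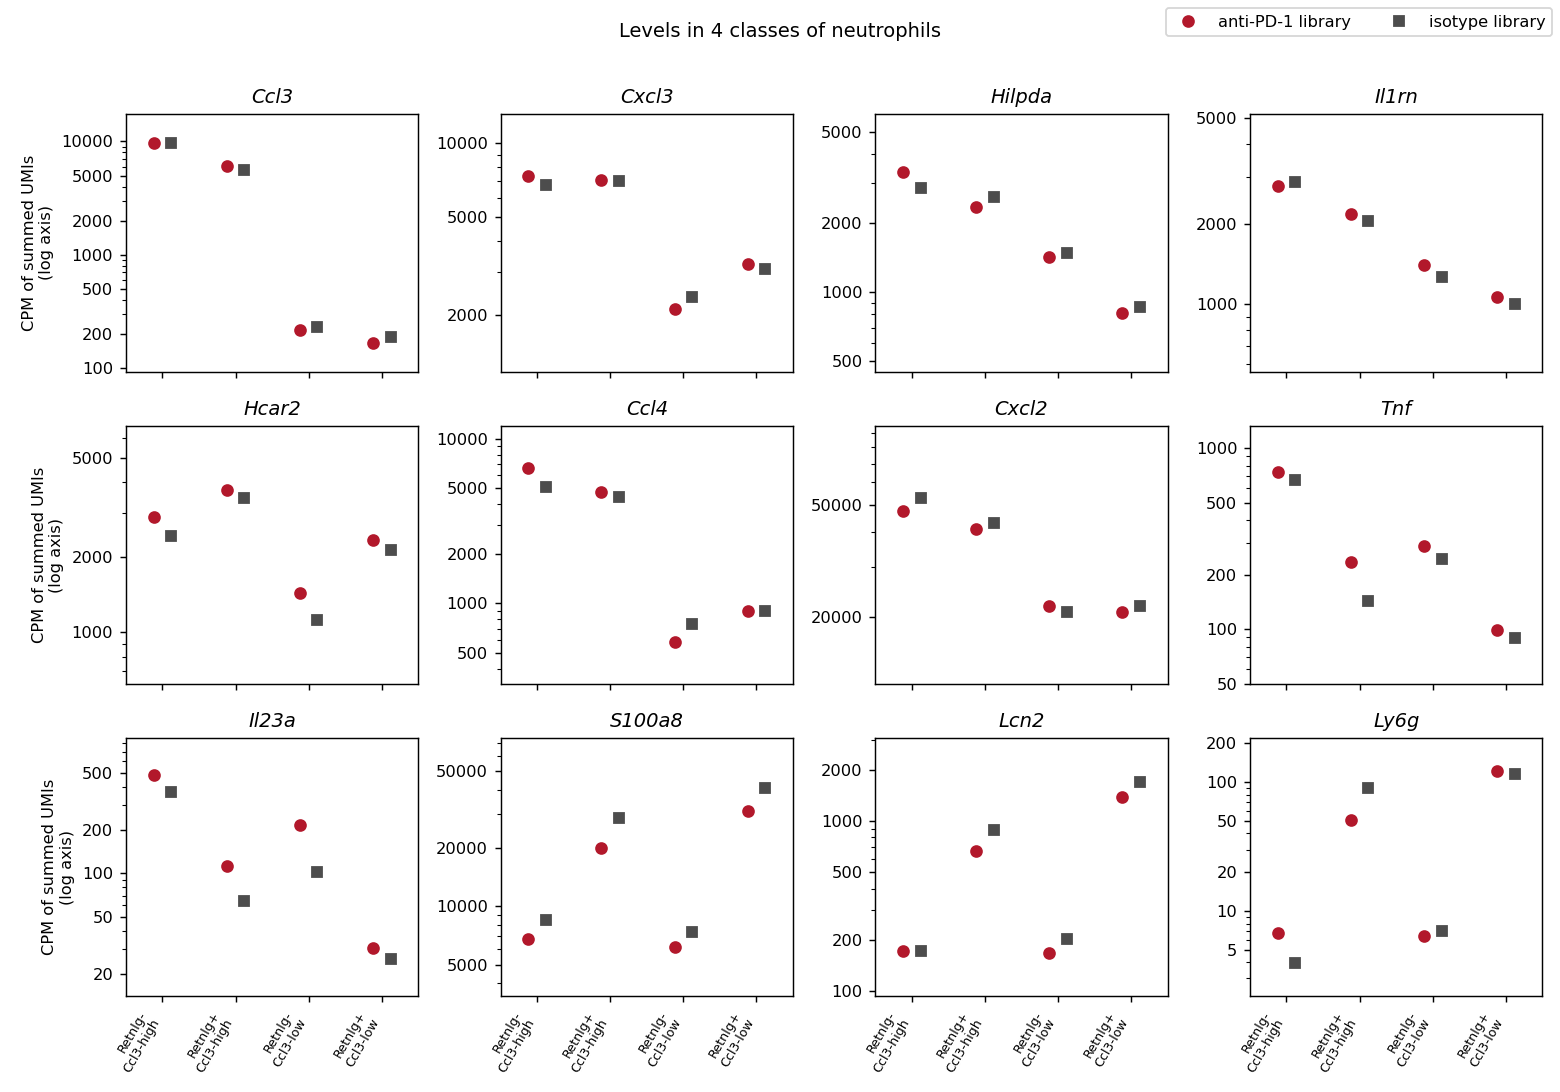
Levels of 12 genes (CPM of the summed UMIs of each class, log axis) in 4 classes of neutrophils set by Retnlg and Ccl3 UMIs; red circles are the anti-PD-1 library and grey squares the isotype library, 1 value each. Ccl3 and Retnlg chose the classes; Tnf and Il23a are highest in the Retnlg-negative Ccl3-high class, and S100a8, Lcn2 and Ly6g are low in both Retnlg-negative classes.

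To compare detection at equal depth, each cell was thinned to 1000 UMIs, which left out 55 anti-PD-1 and 72 isotype cells of the class and 55 and 89 of the comparison class. Ccl4 then had a UMI in 53.3% and 49.1% of the class, against 17.9% and 17.1% of the comparison class. Unthinned shares of Ccl4 were 58.5% and 55.2%, against 23.1% and 20.5%. Hilpda had a UMI in 64.8% and 57.7% of thinned cells of the class, against 26.9% and 27.3%. Il23a had one in 17.8% and 14.95%, against 1.69% and 1.77%, and Tnf in 30.8% and 26.2%, against 7.75% and 6.49%. T cells, which should lack Il1rn and Hcar2, had thinned shares of 0.725% and 1.82% for Il1rn and 0.242% and 0.303% for Hcar2, against 77.6% and 77.3%, and 79.0% in both libraries, in the class. Their median depth was 7027 and 5822 UMIs before thinning, against 1852 and 1800 in the class.

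Promoters of the 2 leading chemokine markers and of Hilpda are shown because these are marker genes of the class, though only Ccl3 chose its cells. Capitals are the letters of NF-kB elements for Cxcl3 and Ccl3 and those of hypoxia response elements for Hilpda. Sequences are RefSeq's, on GRCm38.p6, from 250 bases before to 50 bases after the start of transcription, 5′ to 3′ on the gene's strand.
Cxcl3, chr5:90785851-90786150, plus strand: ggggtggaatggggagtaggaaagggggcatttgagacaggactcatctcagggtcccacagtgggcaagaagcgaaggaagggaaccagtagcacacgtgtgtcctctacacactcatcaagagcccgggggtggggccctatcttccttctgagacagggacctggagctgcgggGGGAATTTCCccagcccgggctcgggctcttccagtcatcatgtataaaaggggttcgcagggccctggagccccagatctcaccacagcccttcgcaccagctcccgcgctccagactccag
Ccl3, chr11:83649329-83649628, minus strand: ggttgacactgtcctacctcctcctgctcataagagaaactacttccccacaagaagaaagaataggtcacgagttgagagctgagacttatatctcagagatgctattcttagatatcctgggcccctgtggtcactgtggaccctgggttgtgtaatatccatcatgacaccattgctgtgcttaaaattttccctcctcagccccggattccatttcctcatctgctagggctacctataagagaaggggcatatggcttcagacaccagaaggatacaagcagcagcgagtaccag
Hilpda, chr6:29272376-29272675, plus strand: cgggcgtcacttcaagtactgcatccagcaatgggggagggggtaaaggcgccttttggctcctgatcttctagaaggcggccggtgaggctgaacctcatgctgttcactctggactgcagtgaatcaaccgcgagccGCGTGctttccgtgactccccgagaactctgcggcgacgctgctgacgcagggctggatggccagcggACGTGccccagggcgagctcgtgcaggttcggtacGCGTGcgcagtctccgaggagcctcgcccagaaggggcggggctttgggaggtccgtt
Both strands of Cxcl3 and Ccl3 were searched for GGG followed by NN and then TTTCC or TTCCC as the NF-kB letters (the forms can overlap), and those of Hilpda alone for ACGTG or GCGTG as the hypoxia response letters. Cxcl3 held 1 NF-kB match, at 73 to 64 bases before the start, and these letters were found in 3.24% of 32851 RefSeq promoters of this length. In Ccl3 these letters were not in this window. Hilpda held 3 hypoxia response matches in the promoter shown, 1 of 2 listed for the gene, and 43.8% of all promoters held at least 1. These matches describe sequence only.

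Set against the comparison class, 465 of 3652 genes with at least 50 UMIs over both classes in each library were at least 2-fold higher in the class in both libraries (12.7%), and 295 were at least 2-fold lower (8.08%). Under the lineage limit these counts were 274 (8.46%) and 298 (9.21%) of 3237 genes. With TMM scaling, which centres the ratios of the genes and shifts log2 ratios by -0.38 with anti-PD-1 and -0.43 with isotype, 248 genes were higher and 585 lower, and with median-of-ratios size factors 233 and 604, so the split of higher against lower depends on the scaling. The median log2 ratio of all measured genes was 0.11 with anti-PD-1 and 0.16 with isotype.

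Chemokine ligands had the highest medians of 25 gene lists when all cells of the class were counted: 9 of 11 measured genes were at least 2-fold higher in both libraries and 0 lower, with median log2 ratios of 2.89 and 2.98. Ccl4 was at 2.89 and 2.50, Cxcl1 at 4.56 and 4.11, Cxcl2 at 1.20 and 1.27 and Cxcl3 at 1.18 and 1.13. Values of part of the list moved with the cells over the lineage limit: Ccl24 was at 7.54 and 6.66 in the whole class but at 2.61 and -0.92 under the limit, and Ccl2 at 4.21 and 4.72 against 0.72 and 2.70 under it. Under the limit 5 of 8 measured ligands were at least 2-fold higher, with medians of 1.33 and 1.46, close to those of cytokines and growth factors (1.33 and 1.47) and below those of the class's own markers (1.46 and 1.62).

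Cytokines and growth factors showed a like pattern, with 8 of 11 measured genes at least 2-fold higher in both libraries and 0 lower. Il23a was at log2 ratios of 3.99 and 3.86, and Tnf at 2.90 and 2.89, with 2.92 and 3.16 under the lineage limit. Hbegf, an EGF receptor ligand, was at 2.11 and 2.57, and Csf1, the macrophage growth factor, at 1.37 in both libraries. Vegfa, the angiogenic growth factor, was 630 and 527 CPM in the class, against 291 and 208 CPM in the comparison class and 414 and 542 CPM in Retnlg-negative Ccl3-low cells. Spp1, osteopontin, was at 2.78 and 4.44, with 2.50 and 3.56 under the limit. Il6 was 109 and 58.9 CPM in the whole class, but 6.34 and 1.06 CPM under the limit. In the list of interleukin-1 and inflammasome genes, Il1a was at 2.11 and 2.37 and Pycard, the inflammasome adaptor ASC, at 2.69 and 2.53 (0.79 and 1.34 under the limit), while the list's medians were -0.12 and -0.22, and 0.30 and 0.13 under the limit.

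Hypoxia genes were higher as a list. At least 2-fold higher in both libraries were 8 of 19 measured genes, with 1 lower, at medians of 1.13 and 0.97; under the lineage limit it was 10 of 19, with 1 lower. Besides Hilpda (2.04 and 1.72), they included P4ha1, a collagen prolyl hydroxylase subunit, at 1.84 and 1.82, Ankrd37 at 1.73 and 1.24, and the oxygen sensors Egln1 at 2.14 and 1.25 and Egln3 at 1.14 and 1.01. Slc2a3, which encodes the glucose transporter GLUT3, was the exception, at -1.82 and -1.61. Of 18 glycolysis genes, 3 were at least 2-fold higher and 1 lower, against 12.7% and 8.08% of all measured genes. The list's medians were 0.87 and 0.77. Hk2, hexokinase 2, was at 2.13 and 2.06 and Pgk1 at 1.39 and 1.30, while Pfkfb4 was at -1.34 and -1.50. The medians of both lists stayed above 0 with TMM scaling.

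Survival genes of the Bcl2a1 family were higher together: Bcl2a1a was at 2.58 and 2.51, Bcl2a1b at 2.03 and 1.93, and Bcl2a1d at 2.31 in both libraries. These genes are near-identical copies whose reads can be split between them, so their separate values are uncertain. Cflar, an inhibitor of caspase-8, was at 1.78 and 1.43 and the proapoptotic Bax at 1.59 and 1.39. In all, 6 of 17 survival and death genes were at least 2-fold higher and 0 lower, and the list's medians were 0.17 and 0.75, the first of them -0.21 with TMM scaling. Mcl1, a survival gene that neutrophils depend on, was level in both classes, at -0.03 and -0.05.

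Among ligands of T cell receptors, Pdcd1lg2 (PD-L2) was 113 and 92.6 CPM in the class, against 14.3 and 19.5 CPM in the comparison class. Cd274, which encodes PD-L1, was 944 and 808 CPM, against 607 and 465 CPM, and so was abundant in both. Tnfsf9, the ligand of 4-1BB, was at log2 ratios of 5.25 and 4.44. Ptgs2, cyclooxygenase 2, was 2957 and 2780 CPM in the class, against 1218 and 1084 CPM in the comparison class, while Alox5ap, which acts in leukotriene synthesis, was at -1.83 and -1.52. Siglecf, reported as a marker of tumour neutrophils in mouse lung, was low but higher in the class, at 44.8 and 28.3 CPM, against 19.6 and 13.6 CPM. Retnlg-negative Ccl3-low cells had 38.3 and 47.0 CPM of it. Arg1, arginase 1, followed the cells of other lineages, at 6.16 and 5.26 in the whole class but 1.25 and -1.10 under the lineage limit.

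Genes outside these lists with ratios far from 0 that held under the lineage limit included Ikbke, a kinase of the NF-kB and interferon pathways, at 3.76 and 4.32 (5.00 and 4.45 under the limit). Dock10, a guanine exchange factor, was at 3.40 and 3.16, and Capg, an actin capping protein, at 3.16 and 2.93. Plau, urokinase, was at 4.10 and 2.60. NF-kB response genes as a list had 3 of 22 at least 2-fold higher and 1 lower, against 12.7% and 8.08% of all measured genes. Icam1 was among the higher ones, at 1.69 and 1.93. The list's medians were 0.18 and 0.38, both below 0 with TMM scaling (-0.20 and -0.05).

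The mature blood neutrophil genes were the lowest list: 11 of 17 measured genes were at least 2-fold lower in both libraries and 0 higher, with median log2 ratios of -2.07 and -1.82. Padi4, the enzyme that citrullinates histones in extracellular traps, was at -3.53 and -2.56. Lrg1 was at -3.22 and -2.79, Pglyrp1, a granule peptidoglycan-binding protein, at -2.85 and -3.13, and Selplg, the selectin ligand PSGL-1, at -2.25 and -2.04. Mmp9, a gelatinase of neutrophil granules, was not lower, at -0.27 and 0.13. Outside the list, S100a9 was at -2.16 and -2.22 and Anxa1, annexin A1, at -2.25 and -2.17.

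Type I interferon response genes were lower than in the comparison class. Of 22 measured genes, 7 were at least 2-fold lower in both libraries and 0 higher, with medians of -0.92 and -1.14; the counts were 7 and 0 of 21 under the lineage limit. Ifitm1, a restriction factor, was 2589 and 3164 CPM in the class, against 9136 and 10413 CPM in the comparison class, and Rtp4 was at -1.44 and -1.81. Interferon-gamma response genes had 0 of 12 genes past 2-fold and medians of -0.06 and -0.14.

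**Figure D3:**
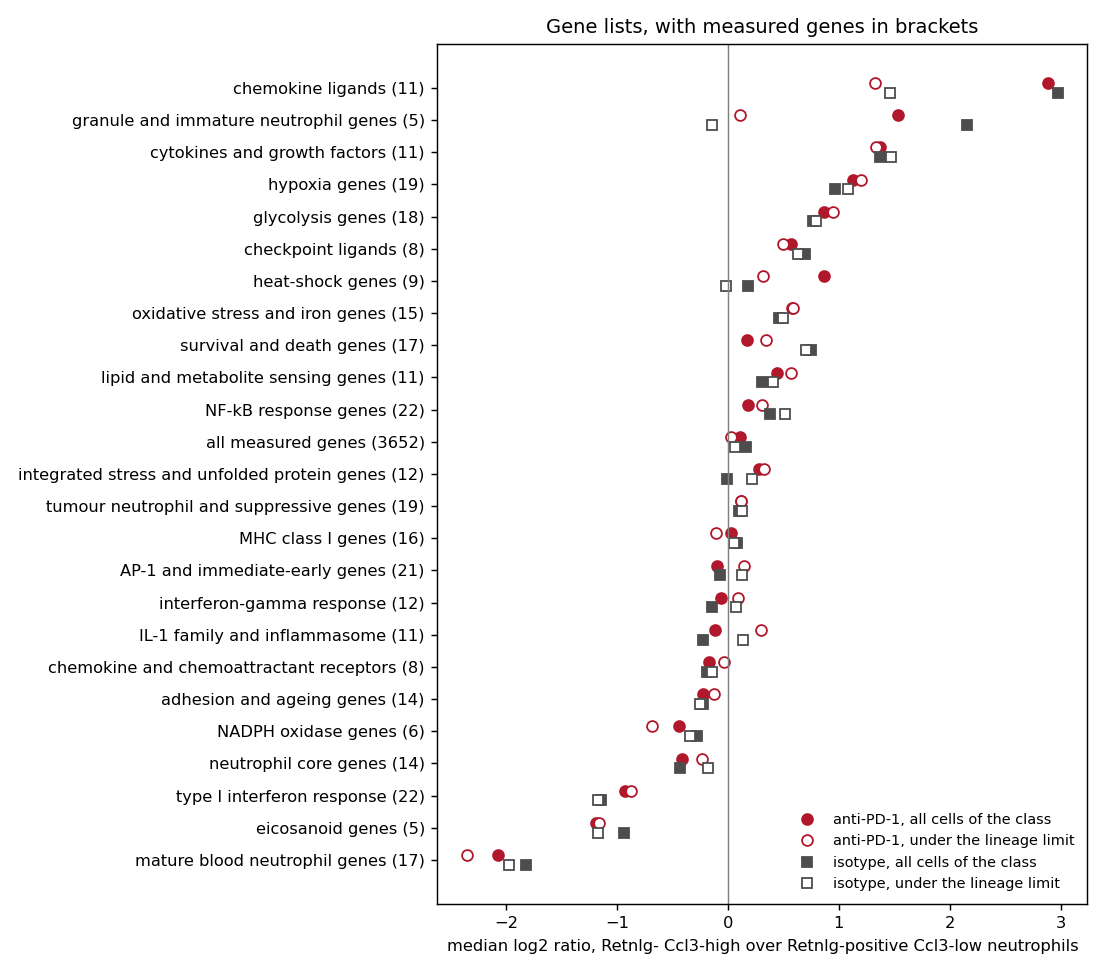
Median log2 ratio of each gene list in Retnlg-negative Ccl3-high neutrophils over Retnlg-positive Ccl3-low neutrophils, by library (red anti-PD-1, grey isotype), for all cells of the class (filled) and for cells under the lineage limit (open); the number of measured genes is in brackets. Chemokine ligands (2.89 and 2.98) are at the top and mature blood neutrophil genes (-2.07 and -1.82) at the bottom, and the open symbols of the chemokine and granule lists lie closer to 0.

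The remaining lists had medians between those of the hypoxia and type I interferon lists, apart from the 3 given next. The 4 measured markers that name the class, other than Ccl3, were at 1.28 and 1.33, and eicosanoid genes at -1.19 and -0.93 over 5. Granule and immature neutrophil genes were at 1.53 and 2.16 over 5 measured genes and at 0.11 and -0.14 over 3 under the lineage limit. The neutrophil core genes, which include S100a8 and S100a9, were at -0.41 and -0.43. Of 14 measured, 1 was at least 2-fold higher and 3 lower, against 12.7% and 8.08% of all measured genes.

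Within the class, Ccl4 and Cxcl2 were higher in cells with more Ccl3. Cells with 3 to 5 Ccl3 UMIs had 1727 CPM of Ccl4 with anti-PD-1 and 1674 CPM with isotype, those with 6 to 13 had 3625 and 2467 CPM, those with 14 to 27 had 6817 and 3858 CPM, and those with 28 or more had 12094 and 12647 CPM. Cxcl2 was 28750 and 38165 CPM in the lowest of these ranges and 65284 and 86723 CPM in the highest. Cxcl3 followed no step order below the highest range: it was 4099, 6355, 4563 and 12333 CPM from the lowest range to the highest with anti-PD-1, and 4473, 4344, 6486 and 11971 CPM with isotype. Il1rn was 2125 and 2526 CPM in the lowest and 3820 and 4302 CPM in the highest. S100a8 had no such order, at 6325 and 9478 CPM in the lowest and 7479 and 9559 CPM in the highest. Median depth moved with Ccl3 as well, at 1501 and 1516 UMIs in the lowest range and 2260 and 2010 in the highest, and its part in these values was not tested.

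**Figure D4:**
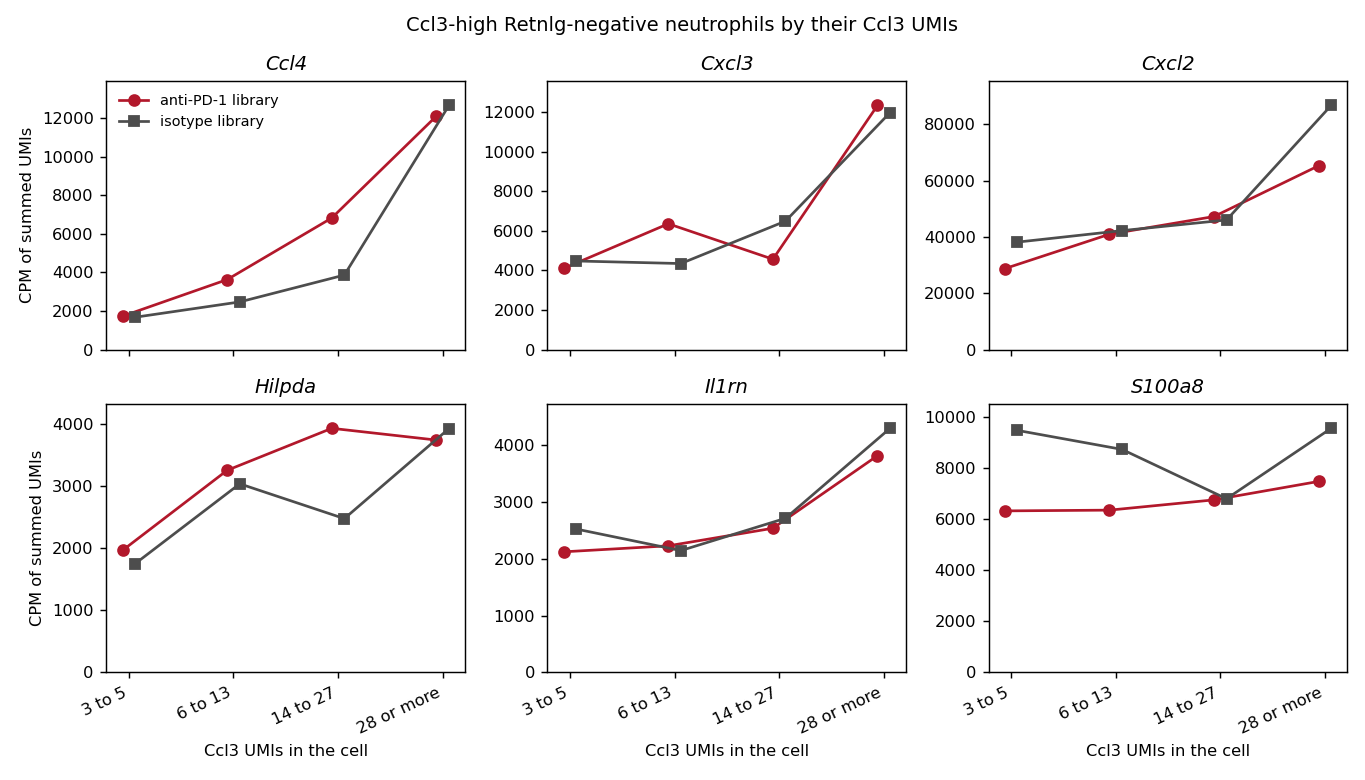
CPM of 6 genes in Ccl3-high Retnlg-negative neutrophils grouped by the Ccl3 UMIs of the cell, from 3 to 5 at the left to 28 or more at the right; red is the anti-PD-1 library and grey the isotype library. Ccl4 is higher at each step, up to 12094 and 12647 CPM, while S100a8 shows no common order.

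Clustering the 1057 cells without the genes of the rule gave 6 clusters, which are described by number because they were made from these counts. Cluster 2 (224 cells) held the most of the class's chemokine transcripts. It had 17447 CPM of Ccl3, 16015 CPM of Cxcl3 and 84243 CPM of Cxcl2, against 8115, 5213 and 43846 CPM in the other cells. Its leading genes were the stefins Cstdc4 and Stfa2l1 and the formyl peptide receptor Fpr1. Wfdc21, Lcn2 and Slpi, which like Stfa2l1 are in the mature blood neutrophil list, were also among them. Cluster 4 (270 cells) had the highest Hilpda, 6141 CPM against 2214 CPM in the others, together with the heat-shock gene Hspa1a at 2689 CPM against 673 CPM and Fos at 2863 CPM against 1008 CPM. Cluster 3 (80 cells) was led by interferon genes, with 5289 CPM of Isg15 against 392 CPM and 1436 CPM of Rsad2 against 68.3 CPM. It also had the highest Ccl4, at 13245 CPM against 5256 CPM, and Cd274, at 1939 CPM against 794 CPM.

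Cluster 0 (140 cells) had more S100a8, 18027 CPM against 6625 CPM in the others, but less Mmp9, 135 CPM against 490 CPM. It had little Tnf, 131 CPM against 759 CPM. Cluster 1 (271 cells) had 893 CPM of Il23a against 275 CPM, 1171 CPM of Mmp9 against 237 CPM and 106 CPM of Siglecf against 14.2 CPM; its leading genes by fold, such as Gzmb and Mcpt8, are those of other lineages, but 10 of its cells were over the lineage limit and the basophil and mast cell UMIs came mostly from 1 cell per library. Cluster 5 (72 cells) was nearly the subset with other lineages' markers: 71 of its cells were over the lineage limit, its median depth was 7275 UMIs, and it had 3430 CPM of Arg1 against 6.69 CPM and 2504 CPM of Fn1 against 5.58 CPM. Its Ccl3 was 1961 CPM, against 11847 CPM in the other clusters.

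To compare the antibodies within the class, UMIs were summed over its cells in each library and set as CPM. Of 3762 genes with at least 50 UMIs over both libraries, 185 were at least 1.5-fold higher with anti-PD-1 (4.92%) and 162 at least 1.5-fold lower (4.31%). Under the lineage limit it was 160 (5.57%) and 86 (2.99%) of 2873. In the comparison class it was 233 (6.02%) and 73 (1.89%) of 3869. Genes high in the class other than Ccl3 differed little between the antibodies. Log2 ratios of anti-PD-1 over isotype were 0.12 for Cxcl3, 0.23 for Hilpda, -0.05 for Il1rn, 0.25 for Hcar2 and -0.15 for Cxcl2. Ccl3 was at 0.02, but the rule chose cells by it, so this value does not compare the antibodies. Ccl4 was 6658 CPM with anti-PD-1 and 5073 CPM with isotype, a log2 ratio of 0.39 (0.34 to 0.44), with 0.30 under the lineage limit and 0.01 in the comparison class.

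Interferon-gamma response genes were mostly higher with anti-PD-1. Of 14 measured genes of the list, 8 were at least 1.5-fold higher and 0 lower, against 4.92% and 4.31% of all genes, and the median log2 ratio was 0.77, against 0.02 for all measured genes. Under the lineage limit 7 of 13 were higher with a median of 0.74, and in the comparison class 8 of 13 with a median of 0.79. The classes' medians differed by -0.02, with -0.68 to 0.64 as a range combined from the medians of the gene intervals. Gbp2, an interferon-inducible GTPase, was 306 CPM (314 UMIs in 70 cells) with anti-PD-1 and 130 CPM (165 UMIs in 52 cells) with isotype, a log2 ratio of 1.24 (0.96 to 1.52). Irgm1, an immunity-related GTPase, was 59.4 and 23.5 CPM, a log2 ratio of 1.33 (0.68 to 2.02). Irf1, a transcription factor of the response, was 231 and 137 CPM, a log2 ratio of 0.76 (0.47 to 1.05), and 0.96 under the lineage limit. Cd274 was at 0.22 (0.10 to 0.35). Gbp2 and Irgm1 were among the leading genes of cluster 3, and whether such cells were more frequent or held more of these transcripts each was not tested.

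A few cells carried some of these ratios. Cxcl10, a chemokine for CXCR3-bearing T cells, was 329 CPM with anti-PD-1 and 151 CPM with isotype, but came from 34 and 38 cells, 1 of which held 92 of the 338 anti-PD-1 UMIs. Its log2 ratio was 1.12 (0.86 to 1.38), and 0.66 without that cell. Cxcl9 was 68.1 and 3.14 CPM, with 55 of its 70 anti-PD-1 UMIs in 1 of 5 cells, and had the opposite direction in the comparison class, at -2.03 (-4.08 to -0.38).

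Type I interferon response genes were likewise higher, with 12 of 19 at least 1.5-fold higher, 0 lower and a median of 0.65. Under the lineage limit it was 6 of 15 with a median of 0.47, and in the comparison class 3 of 26, with 1 lower and a median of 0.30. Rsad2, the antiviral enzyme viperin, was 231 CPM with anti-PD-1 and 99.7 CPM with isotype, a log2 ratio of 1.21 (0.89 to 1.53), with 0.98 under the lineage limit; in the comparison class it was 231 and 242 CPM, at -0.07 (-0.28 to 0.14). Rtp4 was at 0.99 (0.58 to 1.41) and Zbp1, a nucleic acid sensor, at 0.91 (0.47 to 1.36), with 0.62 and 0.69 in the comparison class. Ifit1 and Ifit3 had the largest ratios, 2.21 and 3.04, but 0.55 and 1.70 without the cell with most UMIs. Isg15, the most abundant of those named, was 759 and 677 CPM, at only 0.17 (0.02 to 0.31) in the class, -0.03 under the lineage limit and 0.51 (0.43 to 0.59) in the comparison class. The classes' medians for this list differed by 0.35 (-0.23 to 0.94), with an interval combined from the medians of the gene intervals, and by -0.10 with each cell thinned to 1000 UMIs; with 1 library per antibody this difference was not tested.

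The promoters of Gbp2 and Cxcl10 are shown for the interferon genes that were higher, with TTTC, NN and TTTC in a row, a core of interferon-stimulated response elements, in capitals on either strand.
Gbp2, chr3:142620413-142620712, plus strand: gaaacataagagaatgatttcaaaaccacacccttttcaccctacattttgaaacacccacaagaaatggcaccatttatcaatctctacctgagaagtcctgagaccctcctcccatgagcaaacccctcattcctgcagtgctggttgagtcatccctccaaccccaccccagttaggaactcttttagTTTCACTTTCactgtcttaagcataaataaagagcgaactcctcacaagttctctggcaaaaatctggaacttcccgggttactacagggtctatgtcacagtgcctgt
Cxcl10, chr5:92348840-92349139, minus strand: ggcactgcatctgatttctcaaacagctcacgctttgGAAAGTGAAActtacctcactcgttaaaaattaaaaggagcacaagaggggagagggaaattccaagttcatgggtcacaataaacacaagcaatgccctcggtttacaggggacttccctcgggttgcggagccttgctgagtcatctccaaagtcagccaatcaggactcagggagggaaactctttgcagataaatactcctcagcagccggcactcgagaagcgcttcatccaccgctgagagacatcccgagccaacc
Each held 1 match, and 3.44% of RefSeq promoters held at least 1. The matches describe sequence only.

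Several heat-shock genes were higher with anti-PD-1 in the class. Of 10 measured genes 3 were at least 1.5-fold higher and 0 lower, against 4.92% and 4.31% of all measured genes, with a median of 0.47. Under the lineage limit 2 of 7 were higher and 0 lower, with a median of 0.33. In the comparison class 0 of 9 passed in either direction and the median was -0.02. The classes' medians differed by 0.50, with 0.21 to 0.79 as a range combined from the medians of the gene intervals. With each cell thinned to 1000 UMIs they differed by -0.01, and the difference was not tested. Hspa1a, an inducible Hsp70 gene, was 1448 CPM with anti-PD-1 and 831 CPM with isotype, a log2 ratio of 0.80 (0.69 to 0.92), and 0.40 in the comparison class. Its near-identical copy Hspa1b was at 0.74 (0.60 to 0.87), against -0.31 (-0.44 to -0.17) in the comparison class. The constitutive Hspa8 was at 0.58 (0.48 to 0.68), against 0.00. Hspa1a UMIs came from 74 and 85 cells of the class, and its level and that of Fos were highest in cluster 4. Whether such cells were more frequent or held more of these transcripts each was not tested. Among immediate-early genes, Fos was 1772 and 1113 CPM, at 0.67 (0.57 to 0.77), while the list's median was 0.13 with 3 of 22 past 1.5-fold.

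Single genes of other kinds were also higher with anti-PD-1. Prok2, the chemoattractant prokineticin 2, was 80.8 CPM (83 UMIs in 27 cells) with anti-PD-1 and 19.6 CPM (25 UMIs in 14 cells) with isotype, a log2 ratio of 2.04 (1.38 to 2.75), against 0.17 in the comparison class. Asprv1, an aspartic protease of the mature neutrophil list, was 620 and 338 CPM, at 0.87 (0.69 to 1.05), against 0.07. Plau was 81.7 and 31.4 CPM (84 and 40 UMIs), at 1.38. Egln1 was 97.3 and 43.2 CPM, at 1.17 (0.68 to 1.67), and was the only one of 19 measured hypoxia genes past 1.5-fold. All 4 genes kept their direction under the lineage limit.

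The genes lower with anti-PD-1 were fewer under the lineage limit, and several of them were stefins, cysteine protease inhibitors encoded in 1 cluster on chromosome 16. Stfa2l1 was 248 CPM with anti-PD-1 and 410 CPM with isotype, a log2 ratio of -0.72 (-0.95 to -0.50). Cstdc4 was 776 and 1121 CPM, at -0.53 (-0.66 to -0.40), and Csta2 21.4 and 54.2 CPM, at -1.34 (-2.10 to -0.63). Cstdc4 and Stfa2l1 lead cluster 2, and whether such cells were fewer or held less of these transcripts each was not tested. Stefin genes are similar copies, so their separate values are uncertain. Mgst1, a microsomal glutathione transferase, was 37.0 and 75.3 CPM, at -1.03 (-1.61 to -0.47), and S100a8 was at -0.33 (-0.37 to -0.29), close to the -0.40 (-0.42 to -0.38) of the comparison class. Gadd45a, a stress-induced growth arrest gene, was at -0.53 (-0.74 to -0.32), against -0.03. Larger ratios of Gzmb, Cma1 and Tpsb2 came from 1 isotype cell each: 246 of 264 isotype UMIs of Gzmb, and all isotype UMIs of the mast cell protease genes Cma1 and Tpsb2.

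**Figure D5:**
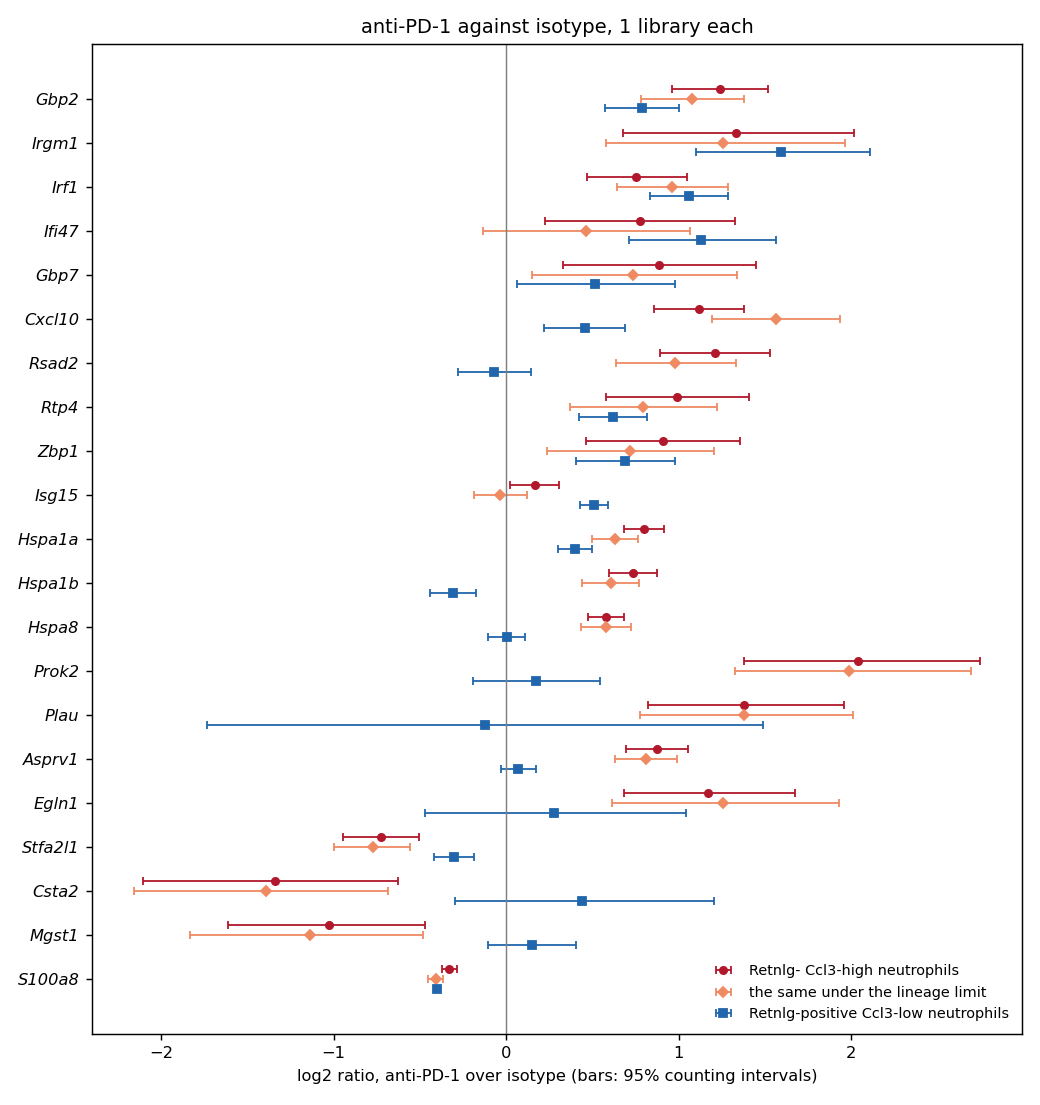
Log2 ratio of anti-PD-1 over isotype for 21 genes, with 95% counting intervals, in Ccl3-high Retnlg-negative neutrophils (red), the same cells under the lineage limit (orange) and Retnlg-positive Ccl3-low neutrophils (blue), 1 library per antibody. Gbp2, Irgm1 and Irf1 lie above 0 in each of these groups, Rsad2 and Hspa8 lie above 0 in the class and at -0.07 and 0.00 in the comparison class, and S100a8 lies below 0 in each.

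Several of the remaining lists had genes past the fold mostly in 1 direction, against 4.92% higher and 4.31% lower over all measured genes. Oxidative stress and iron genes had 4 of 16 higher and 0 lower, and 2 of 15 higher and 2 lower under the lineage limit. Tumour neutrophil and suppressive genes had 4 of 23 higher and 1 lower, and 1 of 17 and 0 under the limit. Granule and immature neutrophil genes had 0 of 6 higher and 2 lower, and 0 of 3 past the fold under the limit. Chemokine ligands had 4 of 15 genes at least 1.5-fold higher, 0 lower and a median of 0.23, and 2 of 9 with 1 lower and a median of 0.12 under the lineage limit. Glycolysis genes had 0 of 18 past the fold in either direction and a median of 0.12, NF-kB response genes 0 of 22 and 0.05, and MHC class I genes 0 of 16 and 0.18, against 3 of 16 and 0.35 in the comparison class. Mature blood neutrophil genes had 2 of 15 higher and 3 lower, with a median of -0.22.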

How the data were processed

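The files hold raw counts of UMIs for 32285 genes in each barcode, as the authors deposited them. Per the file headers they come from Cell Ranger 5.0.1, whereas version 2.1.1 and build mm10 stand in the submitters' processing notes. Dense tables of the same counts were not used. Depth was 72148493 UMIs (anti-PD-1) and 67520433 UMIs (isotype). Each class was summed within its library and expressed in CPM. With 1 library per antibody no test was run: shares carry exact Clopper-Pearson and differences Newcombe 95% intervals, and log2 ratios exact conditional binomial 95% intervals, which cover counting error only. No pseudocount was used. Named genes were the 15 highest and 15 lowest per comparison by the interval bound nearest to 0 (antibodies) or the smaller of both libraries' ratios (classes), with at least 50 UMIs and 20 CPM, and members of the 25 lists; other genes named were chosen after their values were seen. Members and lists were chosen with earlier results of these data known. Intervals were tried only on simulated independent counts without cells, which cannot show how they cover UMIs held by a few cells. Clusters used scanpy 1.11.5 and leidenalg 0.10.2 (1000 variable genes, 15 components, resolution 0.6), TMM factors edgeR 4.0.16; Python 3.11.15, numpy 2.4.6, scipy 1.17.1 and R 4.3.3 were used. Doublets were scored with scrublet. Gene identifiers shown, 550 of 550, were found in GENCODE. Alternatives were other limits, scalings, minima and thinning.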

Additional observations from a re-analysis of the deposited data

Results flagged for a closer look

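Among list genes and named genes with at least 50 UMIs in each class, 5 had a log2 ratio of anti-PD-1 over isotype of opposite sign in Ccl3-high Retnlg-negative neutrophils and in Retnlg-positive Ccl3-low neutrophils, each with a counting interval that left out 0. With 1 library per antibody, none of these differences was tested. Hspa1b was at 0.735 in the class and -0.31 in the Retnlg-positive cells, and at 0.61 and -0.00 under the lineage limit. Braf, a kinase of the MAPK pathway, was at -0.814 in the class and 0.35 in the Retnlg-positive cells, with 39 UMIs in the anti-PD-1 class and 85 in the isotype class. Chil3, a chitinase-like lectin, was at -1.75 in the class, from 13 anti-PD-1 and 36 isotype cells, and at 1.53 in the Retnlg-positive cells. In the class, 39 of its 66 anti-PD-1 UMIs and 91 of its 276 isotype UMIs came from 1 cell each. Chil3 is itself a marker of the lineage limit, under which these ratios were -1.74 (-3.78 to -0.11) and 0.54. Ccl5 was at -0.557 in the class and 4.29 in the Retnlg-positive cells; 138 of its 221 anti-PD-1 UMIs and 183 of its 403 isotype UMIs came from 1 cell each. Without the isotype cell with most UMIs the class ratio of Ccl5 was 0.32, of the same sign as in the Retnlg-positive cells, and under the lineage limit it was -0.95 (-2.01 to 0.03). Spp1 was at -0.298 in the class, 0.25 under the lineage limit and 1.36 in the Retnlg-positive cells.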

How the results depend on the processing

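The share differences kept their sign under every alternative run. Of gene and list values past the fold used, 2 turned: Saa3 was at -0.71 with at least 3 gate genes, against 1.68 with 2, and the granule list's isotype median was -0.14 under the lineage limit, against 2.16. With TMM or median-of-ratios scaling, Hcar2 and the class medians of the NF-kB, MHC class I, suppressive, survival, heat-shock, lipid sensing and integrated stress lists turned below 0 in 1 library or both. Genes at least 2-fold higher than in Retnlg-positive cells numbered 465, and 272 with at least 3 gate genes, 274 under the lineage limit, 248 with TMM scaling, 233 with median-of-ratios factors, 176 with thinned cells and 174 with at least 200 UMIs. Lower genes numbered 295, and 585, 604, 180 and 157 with TMM, median-of-ratios, thinning and 200 UMIs. Between antibodies, 185 genes were higher, and 99 with thinning, 561 with at least 20 UMIs, 23 with at least 200 and 1672 with no minimum; 162 were lower, and 86 under the lineage limit, 65, 493, 18 and 1659 in the other settings in that order. The type I interferon median was 0.23 with at least 200 UMIs, against 0.65. Apart from construction (fewer genes, cells or another centre), the cause was not tested. No paired analysis was possible because each antibody has 1 library. Depth limits low genes: a count of 50 UMIs over both libraries leaves wide intervals.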
